A study of Homo sapiens with 18 samples.

Results

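Leaders of the third passage through the sciatic nerve, made from the human pancreatic carcinoma line MiaPaCa-2, were compared with the parental line. The comparison uses 6 of the 18 libraries of the series, chosen by their labels: 3 libraries of leaders with the treatment label In vivo Passage3, and 3 libraries of non-injected cells with the treatment label In vitro. All 6 carry the genotype label WT and come from this 1 cell line, which grows as a poorly differentiated carcinoma and lacks the CDKN2A locus. Leaders, a term that the labels do not define further, were collected after injection into the sciatic nerve. Part of them were injected again after growth in culture, and passage 3 is the third round of a series of 4. The other libraries are leaders of passages 1, 2 and 4 and laggers of passage 1, with 3 libraries in each group. The labels do not name the host animal, do not say whether RNA was taken at harvest or after regrowth, and do not say that the replicates came from separate cultures or animals, so p-values measure the spread between these libraries, which may be technical.

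Perineural invasion is the spread of cancer cells along and into nerves, and it is frequent in pancreatic ductal carcinoma. Cells that enter a nerve meet Schwann cells, nerve fibres and a matrix rich in laminins and collagens. Growth factors, chemokines, guidance cues and adhesion molecules of the nerve are among the signals studied in this process.

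The total of gene counts ran from 17743014 to 29140124 in the passage 3 leader libraries and from 29005147 to 39373248 in the parental libraries. Over the 16187 tested genes, the log2 of CPM, counts scaled to a common library size, correlated at 0.959 to 0.973 between passage 3 leader libraries and at 0.961 to 0.989 between parental libraries, against 0.873 to 0.911 between libraries of the 2 groups. Passage 3 leader replicate 2 stands apart. Of its reads, 24.8% were not aligned, against 10.5% and 6.51% in the other passage 3 leader libraries, and 14.1% fell in no annotated feature. This library also holds 394150 counts of HBB, the beta chain of adult haemoglobin, against 10 and 21 counts in the other passage 3 leaders and 63 in the parental libraries together. It has 567 counts of HBD, the delta chain, but 1 count of HBA1 and 0 of HBA2 and ALAS2. Every count of genes below was therefore also made without it, though not each such count is printed. The part of reads that map to more than 1 place was 20.2% to 28.6% in the passage 3 leaders and 13.9% to 16.4% in the parental line.

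The labelled cell type was checked against its known features. CDKN2A and MTAP, neighbouring genes that MiaPaCa-2 lacks, had 0 counts in all 6 libraries. VIM, the intermediate filament of mesenchymal cells that this line expresses, did not pass the test. Among markers of other cell types, the Schwann cell list summed to 45.6 to 67.7 CPM in passage 3 leaders and 233.8 to 270.2 CPM in the parental line. That difference is MBP alone, with 36.1, 28.2 and 15.3 CPM in passage 3 leaders and 199.5, 207 and 235 CPM in the parental line, whose call was lost without any 1 passage 3 leader library or parental replicate 3. Without MBP the list summed to 30.3 to 38.1 CPM in passage 3 leaders and 34.2 to 35.3 CPM in the parental line, and S100B, FOXD3 and GAP43 had 0 counts in all 6. The neuron markers NEFL, NEFM, NEFH and STMN2 and the leukocyte markers AIF1, C1QA, C1QB and CD3E were likewise at 0 counts in all 6. Other leukocyte markers went both ways. PTPRC was called higher, with 196 counts in passage 3 leaders and 0 in the parental line, and CSF1R, not tested, had 21 and 0. FCER1G (8 and 135 counts) and CD68 (12 and 75) were called lower, CD68 not without passage 3 leader replicate 2. Summed macrophage and leukocyte markers were 5.15 to 10.9 CPM in passage 3 leaders and 2.99 to 5.70 CPM in the parental line, and neuron markers 10.5 to 12.9 CPM in passage 3 leaders and 9.24 to 13.5 CPM in the parental line. Endothelial markers summed to 75.8 to 124 CPM in passage 3 leaders and 155 to 278 CPM in the parental line, nearly all of it EGFL7, and to 4.32 to 11.1 CPM in passage 3 leaders and 3.29 to 6.39 CPM in the parental line without it, with KDR, TEK and EMCN at 0 counts in all 6. In these bulk samples, fewer cells of a type and less RNA per cell cannot be told apart.

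Passage 3 leaders differed from the parental line at 3976 of 16187 tested genes, which is 24.6% (edgeR quasi-likelihood test, Benjamini-Hochberg adjusted p under 0.05 over all tested genes). Of these, 2230 genes were higher in passage 3 leaders (13.8% of the tested genes) and 1746 were lower (10.8%). Log2 fold changes, given throughout as passage 3 leaders over parental with their standard error (SE), had a median of 1.97 among the genes that were higher and of -1.17 among those that were lower, against 0.01 over all tested genes. In 3832 of the called genes the 3 and 3 libraries did not overlap, as in 6170 of all 16187 tested genes. Without replicate 2, 3761 of 16839 genes were called (22.3%), 12.6% higher and 9.74% lower, and 3321 of the 3976 genes kept their call and direction. The count depended more on other libraries: it was 2491 without passage 3 leader replicate 1 and 2589 without parental replicate 3. Genes that are given with a fold change below kept their call and direction in each of the 6 fits that leave out 1 library, unless a loss is stated.

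**Figure D1:**
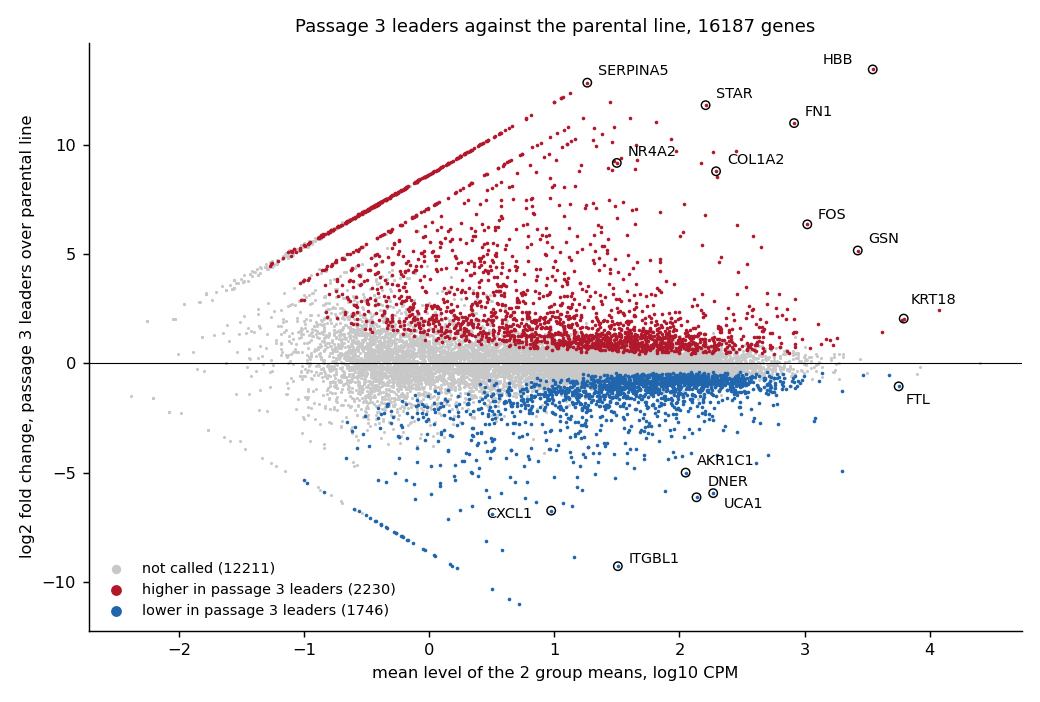
Each point is a gene. The x axis gives the log10 of the average of both group means in CPM and the y axis the log2 fold change of passage 3 leaders over the parental line. Red points (2230) were called higher in passage 3 leaders and blue points (1746) lower, grey points were not called, and genes with 0 counts in all 6 libraries are not drawn. FN1, STAR and FOS are among the labelled genes that were higher and UCA1 and AKR1C1 among those that were lower, and the point for HBB rests on 1 library. For genes with 0 counts in 1 group the fitted fold change is no measured size.

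Among the genes that were higher, those named for the largest fold changes were hardly expressed by the parental line. STAR, which carries cholesterol into mitochondria for steroid synthesis, had 119, 534 and 317 CPM in passage 3 leaders and 0.0995, 0.0255 and 0.148 CPM in the parental line. NR0B2, a nuclear receptor that represses bile acid synthesis, had 63.0, 101 and 75.9 CPM in passage 3 leaders, against 3 counts in the 3 parental libraries together, a ratio of 2814 with a counting interval of 962 to 13650. SERPINA5, an inhibitor of activated protein C, had 32.5, 47.8 and 29.6 CPM in passage 3 leaders and 0 counts in the parental line, at least 1258-fold higher with a floor of 3 counts over the group. By the same measure ZBTB7C, a transcription factor with zinc fingers, was at least 899-fold higher, CHI3L2, a chitinase-like protein, at least 777-fold, and SSTR3, a somatostatin receptor, at least 422-fold. In these 6 genes all 3 passage 3 leader libraries were high and all 3 parental libraries were at or near 0. A single library carried other large values: IGSF10 had 0.221, 0.320 and 27.1 CPM in passage 3 leaders, and its bound of 438-fold became 9.63-fold without replicate 3, where it lost its call. SUCNR1, the receptor for succinate, had 0.111, 2.88 and 35.7 CPM in passage 3 leaders, and its bound of 601-fold became 53.9-fold without replicate 3.

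Among abundant transcripts, KRT18 and KRT8, the keratin pair of simple epithelia, were higher. KRT18 had 9516, 12203 and 8211 CPM in passage 3 leaders and 2431, 2123 and 2703 CPM in the parental line, a log2 fold change of 2.04 ± 0.31 (SE, adjusted p = 0.000199), and its partner KRT8 rose by 1.96 ± 0.30. GSN, gelsolin, which severs actin filaments, had 4840.0, 5979 and 4708 CPM in passage 3 leaders, against 130.4, 108.5 and 196 CPM in the parental line. FGFR1, a receptor for fibroblast growth factors, had 1122, 2026 and 1312 CPM in passage 3 leaders and 170.3, 145 and 270.3 CPM in the parental line. SGK1, a kinase induced by serum and steroids, had 1306, 1002 and 1392 CPM in passage 3 leaders and 235, 248 and 174 CPM in the parental line. For each of these genes the lowest passage 3 leader library was above the highest parental library. Absence of overlap was a condition for naming genes by fold change or difference, so it adds no support.

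The genes that were lower include secreted and surface proteins. GPRC5A, an orphan receptor induced by retinoic acid, had 160.3, 114 and 114 CPM in passage 3 leaders and 3700.1, 3784 and 4133 CPM in the parental line. UCA1, a long noncoding RNA named for bladder cancer, had 9.13, 6.40 and 2.54 CPM in passage 3 leaders, against 356, 389 and 353 CPM in the parental line. IGFBP6, a binding protein for insulin-like growth factors, fell to 62.8, 47.2 and 48.5 CPM in passage 3 leaders, against 1025, 698 and 1167 CPM in the parental line. CCR1, a receptor for inflammatory chemokines, had 0 counts in the passage 3 leaders and 12.4, 10.9 and 7.73 CPM in the parental line, at least 239-fold lower. APOA2, a protein of high-density lipoprotein, was at least 198-fold lower. MYO10, a motor of filopodia, STMN3, a stathmin that binds tubulin, and COTL1, which binds actin filaments, fell by 2.80, 4.54 and 2.48 on the log2 scale. In each of these the groups did not overlap, which was likewise a condition for naming genes in this way.

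Gene groups were read from 30 lists of pathways against the 13.8% and 10.8% of all tested genes that were higher or lower. The lists give counts and medians only, and nothing is claimed to be particular to a list from them.

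**Figure D2:**
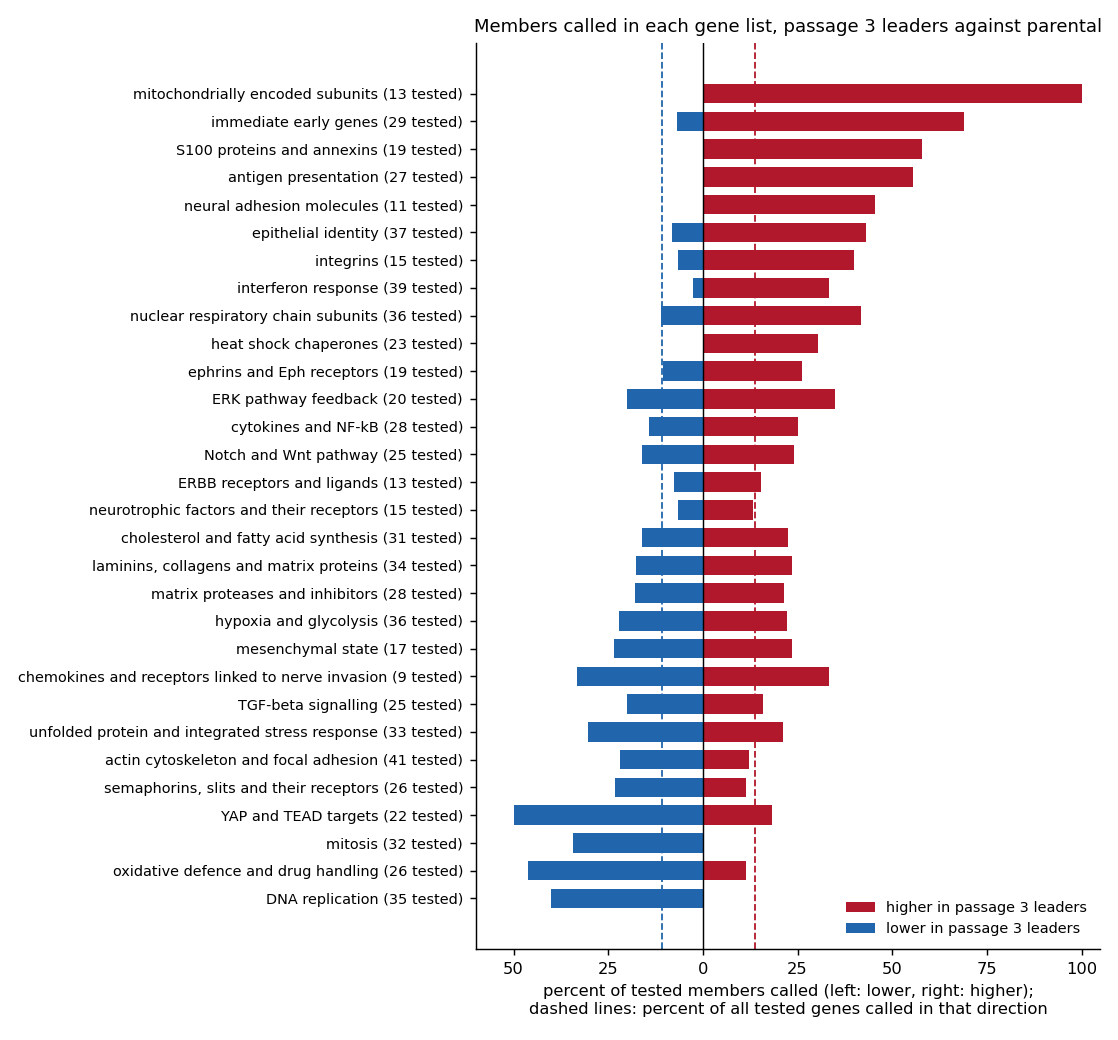
Bars give the percent of the tested members of each list that were called higher (red, to the right) or lower (blue, to the left) in passage 3 leaders against the parental line, and dashed lines give the percent of all tested genes called in that direction (13.8 and 10.8). All 13 mitochondrially encoded subunits and 20 of 29 immediate early genes were higher, and no member of the DNA replication and mitosis lists was.

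Immediate early genes are switched on within minutes of a growth factor, stress or calcium signal without new protein synthesis, and many encode transcription factors. Of the 29 on the list, all were tested, 20 were higher in passage 3 leaders, which is 69.0% beside the 13.8% of all genes, and 2 were lower. The median log2 fold change was 1.85. NR4A2, an orphan nuclear receptor, had 50.5, 77.1 and 61.3 CPM in passage 3 leaders and 0.0249, 0.128 and 0.185 CPM in the parental line (log2 fold change 9.16 ± 0.38 SE, adjusted p = 2.95e-10). FOS, the partner of JUN in the AP-1 factor, had 1879, 2069.9 and 2280.2 CPM in passage 3 leaders and 21.3, 19.2 and 35.6 CPM in the parental line (6.35 ± 0.32, adjusted p = 5.39e-09). Its relative FOSB had 161, 230.2 and 200.02 CPM in passage 3 leaders and 4.25, 1.74 and 4.36 CPM in the parental line. Between the groups these 3 genes were separated by far more than the replicates differed. List members were named mostly by their adjusted p, so such separation adds no support, here or in the lists below.

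ATF3, a stress-induced repressor, rose by 4.15 ± 0.31, NR4A1 by 3.28 ± 0.30, and ZFP36, which destabilises cytokine messages, by 3.48 ± 0.37 on the log2 scale. EGR1, a zinc finger factor, had 699, 1092 and 806 CPM in passage 3 leaders, against 115, 98.5 and 188 CPM in the parental line (2.69 ± 0.37), and JUN rose by 2.01 ± 0.31. The AP-1 family did not move as a block: FOSL2 fell by 1.30 ± 0.23, and FOSL1 had 126, 91.6 and 63.3 CPM in passage 3 leaders and 190.4, 181 and 269 CPM in the parental line without passing the test (adjusted p = 0.124). MYC, a growth regulator, did not pass it either (log2 fold change -0.27 ± 0.20). KLF2, the other member called lower, lost its call without any 1 of the passage 3 leader libraries or without parental replicate 3. Without replicate 2, 19 members were higher and 1 lower.

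The promoters of immediate early genes are known for 2 short elements, the cAMP response element bound by CREB and the CArG box bound by serum response factor, so 2 promoters are shown for the genes above. They are the 250 bases before the RefSeq start on GRCh38.p14, read 5′ to 3′ along the gene's strand, with matches in capitals: the half-site TGACGT of the cAMP response element on either strand in both, and the CArG box in EGR1. EGR1 lies at chr5:138465229-138465478 on the plus strand and FOS at chr14:75278578-75278827 on the plus strand.
EGR1: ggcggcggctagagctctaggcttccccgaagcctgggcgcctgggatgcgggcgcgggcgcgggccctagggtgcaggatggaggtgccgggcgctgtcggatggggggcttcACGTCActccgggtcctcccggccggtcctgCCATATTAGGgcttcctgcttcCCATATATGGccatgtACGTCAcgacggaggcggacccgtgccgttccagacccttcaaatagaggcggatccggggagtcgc
FOS: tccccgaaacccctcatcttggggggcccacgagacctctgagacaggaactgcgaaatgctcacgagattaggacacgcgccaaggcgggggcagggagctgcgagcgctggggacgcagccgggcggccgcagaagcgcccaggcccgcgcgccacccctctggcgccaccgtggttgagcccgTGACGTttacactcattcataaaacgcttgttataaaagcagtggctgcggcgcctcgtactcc
EGR1 holds 4 matches and FOS 1. Of the 29 genes, 22 had a promoter in the RefSeq table. The half-site TGACGT stood in 7 of the 16 matched genes that were higher (43.8%), among them EGR1, EGR2, EGR4, FOS and FOSB, in 1 of the 2 that were lower, FOSL2, and in 7.1% of all 35116 promoters of this length. The full element TGACGTCA stood in 1 of the 16 and in 1.65% of all promoters. The CArG box stood in 2 of the 16, EGR1 and EGR2, and in 1.16% of all promoters, and the AP-1 site TGANTCA, on both strands, in 0 of the 16 and in 6.57% of all promoters. Of the 4 matched members that were not called, the half-site stood in 1, the full element in 1 and the CArG box in 1. A gene counted as holding a motif if any of its promoters in the table did, while the shares of all promoters count each promoter singly. The 2 kinds of share are therefore not like measures. These matches describe the letters in this window only, and the full element contains the half-site.

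Heat shock chaperones refold damaged proteins. Of 23, 7 were higher and 0 lower, and the median log2 fold change was 0.44, or 0.24 with genes at 0 counts in 1 group set to their bound. HSPA1B, an inducible HSP70, had 61.9, 59.5 and 92.5 CPM in passage 3 leaders, against 14.6, 18.8 and 12.8 CPM in the parental line (2.21 ± 0.24 SE, adjusted p = 1.15e-05). HSPA6, a strictly inducible HSP70, had 42.0, 59.6 and 58.3 CPM in passage 3 leaders and 1.97, 2.25 and 3.81 CPM in the parental line (4.33 ± 0.40). HSPA1A, HSPA1B and HSPA6 have near-identical relatives, so the split of reads between them is uncertain. HSPB8, a small heat shock protein, had 17.3, 22.6 and 17.1 CPM in passage 3 leaders and 0.149, 0 and 0.0370 CPM in the parental line. The constitutive HSPA8 and the HSP90 gene HSP90AA1 did not pass the test, with log2 fold changes of 0.24 ± 0.17 and -0.39 ± 0.24.

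Oxidative defence moved the other way. The NRF2 pathway turns on genes that make glutathione, reduce thioredoxin and clear drugs, and of 26 tested members of the list 12 were lower in passage 3 leaders, which is 46.2% beside the 10.8% of all genes, and 3 were higher. The median log2 fold change was -0.87. SLC7A11, the cystine importer that feeds glutathione synthesis, had 3.10, 3.52 and 9.65 CPM in passage 3 leaders and 59.6, 94.6 and 51.6 CPM in the parental line (-3.65 ± 0.45, adjusted p = 3.59e-05), and its value was -4.39 without passage 3 leader replicate 3. TXNRD1, thioredoxin reductase, had 311, 214 and 258 CPM in passage 3 leaders, against 954, 1073 and 825 CPM in the parental line (-1.86 ± 0.29). In both genes every passage 3 leader library was below every parental library.

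AKR1C1, an aldo-keto reductase with a near-identical relative, had 7.63, 8.37 and 4.46 CPM in passage 3 leaders and 250.3, 221 and 180.3 CPM in the parental line (-5.00 ± 0.91), and that relative, AKR1C2, fell by 3.82 ± 0.85. ABCC2, an export pump for conjugates, fell by 4.17 ± 0.80, GCLM, a subunit of the first enzyme of glutathione synthesis, by 1.13 ± 0.26, and GSR, glutathione reductase, by 0.86 ± 0.18. NQO1 and HMOX1 were also called lower, but each lost the call without at least 3 of the 6 libraries in turn. ALDH3A1, an aldehyde dehydrogenase, went against the list, with 12.9, 18.5 and 35.2 CPM in passage 3 leaders and 1.49, 1.68 and 1.37 CPM in the parental line (3.87 ± 0.78). The other members called higher, GSTP1 and ABCG2, lost their call in 5 and in 4 of these fits, among them those without passage 3 leader replicate 1, parental replicate 2 or parental replicate 3, each of which left 1 member higher.

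The antioxidant response element, to which NRF2 binds, has the core TGACNNNGC. It is shown in capitals in the 250 bases before the RefSeq start of 2 of the genes that fell, TXNRD1 at chr12:104215529-104215778 on the plus strand, 1 of 2 promoters of this gene in the table, and GCLM at chr1:93909431-93909680 on the minus strand, both on GRCh38.p14.
TXNRD1: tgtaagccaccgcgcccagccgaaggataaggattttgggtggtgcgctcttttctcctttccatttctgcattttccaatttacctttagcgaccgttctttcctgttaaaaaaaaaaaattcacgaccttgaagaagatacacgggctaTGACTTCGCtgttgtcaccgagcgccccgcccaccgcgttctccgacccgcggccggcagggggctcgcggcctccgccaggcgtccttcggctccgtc
GCLM: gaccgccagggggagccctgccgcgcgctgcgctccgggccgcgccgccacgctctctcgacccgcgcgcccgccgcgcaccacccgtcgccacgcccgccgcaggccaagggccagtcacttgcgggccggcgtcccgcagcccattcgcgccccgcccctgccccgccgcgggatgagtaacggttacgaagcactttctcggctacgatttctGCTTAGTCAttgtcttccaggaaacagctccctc
Of the 29 genes of the list, 20 had a promoter in the table. The core stood on either strand in 2 of the 8 matched genes that were lower, these 2, in 1 of the 2 that were higher, GSTP1, and in 10.9% of all promoters. Of the 10 that were not called or not tested it stood in 1, GPX2. It also stood in 4 of the 16 matched immediate early genes that were higher. It can overlap the half-site TGACGT. Here too a gene counted if any of its promoters held the core, while the share of all promoters counts each promoter singly.

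**Figure D3:**
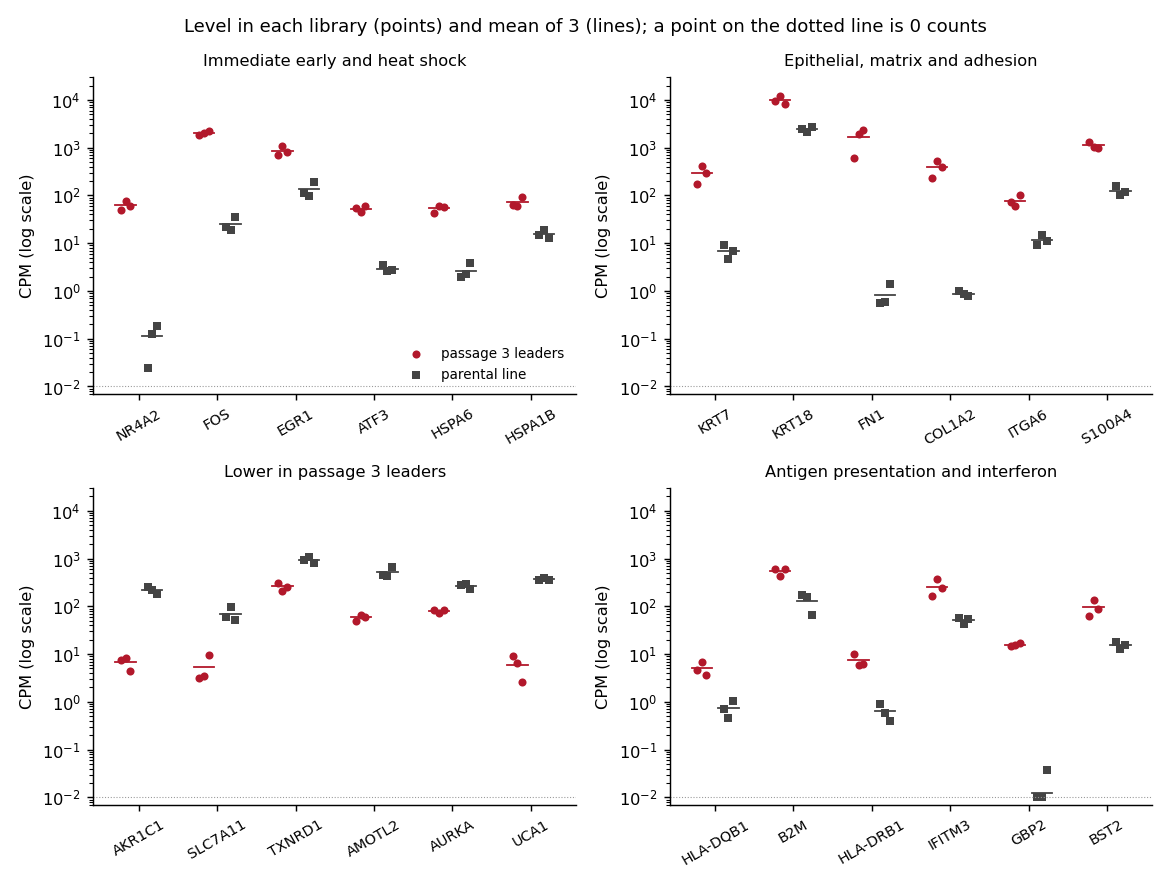
Points are the 3 libraries of each group and short lines their mean, in CPM on a log scale, with passage 3 leaders (red circles) left of the parental line (dark squares). Points on the dotted line have 0 counts. In each of these 24 genes the 3 passage 3 leader libraries lie apart from the 3 parental ones, from FOS at 1879 to 2280.2 CPM against 19.2 to 35.6 CPM to SLC7A11 at 3.10 to 9.65 CPM against 51.6 to 94.6 CPM.

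Epithelial genes were more often higher than lower. Of 37 tested genes of epithelial identity, 16 were higher (43.2%) and 3 lower, with a median log2 fold change of 1.25. KRT7, a keratin of ductal cells, had 174, 414 and 297 CPM in passage 3 leaders and 9.06, 4.72 and 6.92 CPM in the parental line (5.42 ± 0.43 SE, adjusted p = 6.38e-07). KRT17, a keratin of basal cells, had 31.8, 59.5 and 38.0 CPM in passage 3 leaders and 0.373, 0.434 and 0.0740 CPM in the parental line (7.10 ± 0.96). CDH1, E-cadherin of adherens junctions, had 2.88, 2.45 and 5.32 CPM in passage 3 leaders and 0 counts in the parental line, at least 137-fold higher, although its level stayed low. The bound was 104-fold for the desmosomal cadherin DSC2 and 251-fold for RAB25, a small GTPase of apical recycling, both at 0 counts in the parental line. DSP, desmoplakin, rose by 1.25 ± 0.29 and the tight junction genes OCLN and F11R by 1.78 ± 0.32 and 2.57 ± 0.40. The tight junction gene CLDN1 went the other way, with 30.5, 33.5 and 38.2 CPM in passage 3 leaders and 83.4, 109.6 and 69.0 CPM in the parental line (-1.36 ± 0.24), and KRT81, which has near-identical relatives, fell by 3.04 ± 0.59. EHF, an epithelial transcription factor, had 0.111, 1.07 and 10.3 CPM in passage 3 leaders, and its bound of 177-fold was 21.2-fold without replicate 3.

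Genes of the mesenchymal state were split, with 4 of 17 tested higher and 4 lower. S100A4, a calcium-binding protein linked to motility, had 1334, 1042 and 984 CPM in passage 3 leaders and 154, 102 and 117 CPM in the parental line (3.17 ± 0.36). LOXL2, which crosslinks collagen, fell by 1.47 ± 0.35. TGFBI, a matrix protein induced by TGF-beta, fell by 1.93 ± 0.49, and by 2.61 without passage 3 leader replicate 1. CD44, a hyaluronan receptor, and AXL, a receptor kinase, were also called lower, but CD44 lost the call without passage 3 leader replicate 2 or 3 or parental replicate 2, and AXL without passage 3 leader replicate 1 or parental replicate 3.

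Integrins bind the matrix, and ITGA6 pairs with ITGB4 or ITGB1 to bind laminin. Of 15 tested, 6 were higher (40%) and 1 lower, with a median log2 fold change of 1.17. ITGA6 had 73.3, 59.9 and 102 CPM in passage 3 leaders and 9.15, 14.8 and 11.2 CPM in the parental line (2.74 ± 0.50), and ITGA3, also a laminin receptor chain, had 346, 368 and 286 CPM in passage 3 leaders and 40.9, 39.95 and 59.96 CPM in the parental line (2.83 ± 0.56). ITGB4 varied most, with 1.94, 13.6 and 6.05 CPM in passage 3 leaders against 0.224, 0.255 and 1.33 CPM in the parental line (3.62 ± 0.86, 2.81 without replicate 2 and 4.88 without parental replicate 3). ITGB1 rose by 0.95 ± 0.24. The member called lower, ITGB5, lost its call without passage 3 leader replicate 1 or 3 or parental replicate 3.

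Matrix genes moved in both directions, 8 of 34 tested higher and 6 lower. FN1, fibronectin, had 613, 1964 and 2364 CPM in passage 3 leaders and 0.547, 0.587 and 1.37 CPM in the parental line (10.98 ± 1.38 SE, adjusted p = 3.93e-05). COL1A2 had 233, 537 and 403 CPM in passage 3 leaders and 0.995, 0.868 and 0.777 CPM in the parental line (8.78 ± 0.57), while COL1A1, which makes the other chain of type I collagen, had 9.90, 12.1 and 25.1 CPM in passage 3 leaders and 111, 128 and 240.3 CPM in the parental line and did not pass the test (-3.34 ± 1.24, adjusted p = 0.0596). COL3A1, the chain of type III collagen, rose by 6.32 ± 0.53 and SPARC, a collagen-binding protein, by 4.87 ± 0.78. COL4A2, of basement membranes, fell by 1.27 ± 0.32. The other 5 members called lower, LAMA4, COL4A1, COL5A1, COL5A2 and COL18A1, each lost the call without passage 3 leader replicate 1, without passage 3 leader replicate 3 and without parental replicate 3, and 1 member then remained lower.

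Fibroblast and perineurial cell markers overlap with the matrix list, and their sum was 550 to 1336 CPM in passage 3 leaders, against 119 to 254 CPM in the parental line. Of the 7 tested, 3 were higher, COL1A2, COL3A1 and PDGFRA, a growth factor receptor with 22.2, 63.0 and 86.5 CPM in passage 3 leaders and 0.274, 0.0255 and 0.0370 CPM in the parental line. DCN, decorin, had 3 counts in passage 3 leaders and 22 in the parental line, LUM, lumican, 26 and 14, and FAP 0 in all 6. The part of such cells in the matrix result was not tested.

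Proteases and their inhibitors were split, with 6 of 28 tested higher and 5 lower. PLAT, tissue plasminogen activator, had 161, 380.4 and 343 CPM in passage 3 leaders and 0.920, 0.357 and 0.222 CPM in the parental line (9.14 ± 0.88, and 9.90 without parental replicate 1). CTSL, a lysosomal protease, had 134, 138 and 150.4 CPM in passage 3 leaders and 680.01, 623 and 503 CPM in the parental line (-2.09 ± 0.25), and the membrane protease MMP15 fell by 1.65 ± 0.38. The counts were 3 higher without passage 3 leader replicate 1 or any 1 parental library, and 2 lower without passage 3 leader replicate 1 or 2 and 3 lower without parental replicate 2.

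YAP and TEAD, which respond to cell shape and stiffness, have a set of known target genes, and 11 of the 22 tested were lower (50%) and 4 higher, with a median log2 fold change of -0.87. AMOTL2, a junction protein that restrains YAP, had 50.5, 65.9 and 59.4 CPM in passage 3 leaders and 451, 431 and 661 CPM in the parental line (-3.13 ± 0.35, adjusted p = 1.43e-05). CRIM1 fell by 2.61 ± 0.38, and CYR61, a secreted matrix protein, had 448, 304 and 468 CPM in passage 3 leaders and 954, 821 and 964 CPM in the parental line (-1.17 ± 0.26). Its relative CTGF went the other way, with 10.3, 5.55 and 4.99 CPM in passage 3 leaders and 0.796, 0.460 and 0.518 CPM in the parental line, and lost its call without passage 3 leader replicate 1 or any 1 parental library. The count of members higher was 2 without passage 3 leader replicate 1, parental replicate 1 or parental replicate 2.

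Of 41 tested genes of the actin cytoskeleton and focal adhesions, 9 were lower and 5 higher. ASAP1, a regulator of focal adhesion turnover, had 48.6, 51.3 and 54.9 CPM in passage 3 leaders and 216, 273 and 264 CPM in the parental line (-2.28 ± 0.20), and VCL, vinculin, had 450.3, 523 and 535 CPM in passage 3 leaders and 1008, 1050.4 and 1017 CPM in the parental line (-1.03 ± 0.21). RHOB, a GTPase, rose by 2.67 ± 0.28. FLNA, ACTN1 and PXN were called lower but lost the call without parental replicate 3, ACTN1 and PXN also without passage 3 leader replicate 3. The number of members lower was 5 without passage 3 leader replicate 3 and 4 without parental replicate 3.

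TGF-beta and BMP signalling genes were split, with 4 of 25 tested higher and 5 lower. PMEPA1, a feedback inhibitor induced by TGF-beta, had 41.8, 66.4 and 44.7 CPM in passage 3 leaders and 0.970, 1.10 and 2.59 CPM in the parental line (5.06 ± 0.55), and the ligand TGFB3 rose by 3.23 ± 0.64. The BMP targets ID1 and ID3, which block differentiation factors, fell by 2.70 ± 0.59 and 2.66 ± 0.55, as did the inhibitory SMAD6 (by 3.85 ± 1.02) and the ligand BMP7 (by 2.03 ± 0.48).

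Genes linked to nerves were called in both directions. Of 24 neurotrophic factors and receptors, 15 were tested, 2 were higher and 1 lower. GDNF, a nerve growth factor of the glial family that binds RET through GFRA1, had 0.775, 1.6 and 1.72 CPM in passage 3 leaders and 0 counts in the parental line, at least 50.8-fold higher (adjusted p = 0.00175). The other 2, PTPRZ1 higher and GALR2 lower, lost the call without any 1 of the passage 3 leader libraries and in other fits.

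Of 9 tested chemokines and receptors linked to nerve invasion, 3 were higher and 3 lower. CXCR4, the receptor for CXCL12, had 1.05, 2.67 and 1.75 CPM in passage 3 leaders and 0.0746, 0 and 0 CPM in the parental line, a ratio of 64.5 with a counting interval of 21.6 to 317. CCL2, which draws monocytes, had 0 counts in the parental line and was at least 41.2-fold higher. CXCL1, a neutrophil chemokine, had 0.166, 0 and 0.297 CPM in passage 3 leaders and 20.8, 20.1 and 15.2 CPM in the parental line. It lost its call without passage 3 leader replicate 1, as did ACKR3 and CXCL2, which left 0 members lower, and CXCL2 lost it without any 1 of the 6 libraries.

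Of 11 tested neural adhesion molecules, 5 were higher and 0 lower. NEO1, the netrin receptor neogenin, had 23.0, 24.7 and 28.9 CPM in passage 3 leaders and 3.38, 3.45 and 3.18 CPM in the parental line (2.93 ± 0.28, adjusted p = 3.07e-06). ALCAM, a cell adhesion molecule of axons and tumours, had 7.08, 7.09 and 8.62 CPM in passage 3 leaders and 0, 0 and 0.259 CPM in the parental line. NRCAM, a neuronal adhesion molecule, had 2.05, 3.52 and 10.8 CPM in passage 3 leaders and 0.348, 0 and 0.555 CPM in the parental line (4.21 ± 0.93, and 3.25 without replicate 3). CDH2 lost its call without passage 3 leader replicate 3 or any 1 parental library, and PVRL1, which encodes nectin-1, without any 1 passage 3 leader library or parental replicate 1 or 2, so that 3 members remained called without passage 3 leader replicate 3 or parental replicate 1 or 2.

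Among guidance cues, 3 of 26 tested semaphorins, slits and their receptors were higher and 6 lower. ROBO1, a slit receptor, had 45.0, 39.5 and 62.7 CPM in passage 3 leaders and 14.5, 17.0 and 16.9 CPM in the parental line (1.602 ± 0.31). NRP2, a receptor for class 3 semaphorins, fell to 50.01, 45.1 and 42.4 CPM in passage 3 leaders, against 161, 159 and 181 CPM in the parental line (-1.86 ± 0.43), and SEMA7A fell by 4.16 ± 0.75. Without passage 3 leader replicate 1, 3 members were lower. Of 19 ephrins and Eph receptors, 5 were higher and 2 lower. EPHA2 had 115, 113 and 130.4 CPM in passage 3 leaders and 431, 380.3 and 634 CPM in the parental line (-2.01 ± 0.28), and EPHA4 fell by 1.85 ± 0.37. EPHA7 had 16.3, 4.27 and 12.6 CPM in passage 3 leaders and 1 count in the parental line. Members higher were 3 without passage 3 leader replicate 1 or 2 or parental replicate 1 or 2, and members lower were 4 without passage 3 leader replicate 2.

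S100 proteins bind calcium, and annexins bind membranes when calcium rises. Of 19 tested, 11 were higher (57.9%) and 0 lower, with a median log2 fold change of 1.18. S100A2 had 477, 412 and 294 CPM in passage 3 leaders and 21.0, 13.97 and 13.2 CPM in the parental line (4.62 ± 0.46 SE, adjusted p = 4.89e-06). S100A3, S100A16, S100A13, S100A6 and S100A11 rose by 3.07 ± 0.39, 2.64 ± 0.41, 2.09 ± 0.45, 1.37 ± 0.30 and 1.18 ± 0.24. Without parental replicate 3, 7 members were higher.

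Antigen presentation genes were higher in 15 of 27 tested (55.6%) and lower in 0, with a median log2 fold change of 1.54. HLA genes share long stretches of sequence, so reads may be split between them. B2M, the light chain of class I, had 599, 431 and 609.7 CPM in passage 3 leaders and 169.9, 154 and 64.8 CPM in the parental line (2.08 ± 0.46). Class II chains were low in both groups but higher in passage 3 leaders: HLA-DQB1 had 4.65, 6.93 and 3.57 CPM there and 0.697, 0.460 and 1.04 CPM in the parental line (2.80 ± 0.39), and HLA-DRB1 rose by 3.54 ± 0.79. HLA-DRA, its partner, lost its call without passage 3 leader replicate 1 or parental replicate 2 or 3. The count was 11 without passage 3 leader replicate 2, 8 without parental replicate 2 and 9 without parental replicate 3.

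Interferon response genes were higher in 13 of 39 tested (33.3%) and lower in 1. GBP2, a GTPase induced by interferon gamma, had 14.9, 15.6 and 16.8 CPM in passage 3 leaders and 1 count in the parental line (adjusted p = 3.63e-07), and GBP1 had 8.19, 7.57 and 9.25 CPM in passage 3 leaders, also against 1 count. IFITM3, which blocks virus entry, had 165, 372 and 237 CPM in passage 3 leaders and 57.8, 43.1 and 54.4 CPM in the parental line (2.32 ± 0.30), and BST2, tetherin, rose by 2.63 ± 0.48. STAT2, part of the factor that mediates type I interferon signals, fell by 0.82 ± 0.19. Of cytokine and NF-kB genes, 7 of 28 tested were higher and 4 lower. Receptors of the interleukin 6 family were among those higher: OSMR had 117, 125 and 149 CPM in passage 3 leaders and 50.9, 56.3 and 52.0 CPM in the parental line (1.30 ± 0.21), and IL6R rose by 2.67 ± 0.55. LIFR, the receptor for leukaemia inhibitory factor, had 91.2, 116 and 292 CPM in passage 3 leaders and 9.88, 16.3 and 14.1 CPM in the parental line (3.63 ± 0.58, and 2.93 without replicate 3). The cytokine IL18 had 0.941, 0.160 and 0.198 CPM in passage 3 leaders and 12.5, 13.2 and 7.18 CPM in the parental line, and members lower were 2 without parental replicate 3.

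All 13 mitochondrially encoded subunits were higher in passage 3 leaders, with a median log2 fold change of 2.02. These genes are read from mitochondrial DNA and encode the core of the respiratory chain. MT-ND2 had 658, 657 and 546 CPM in passage 3 leaders and 129, 97.3 and 78.8 CPM in the parental line (2.61 ± 0.29), and the smallest change was that of MT-CO1, 1.13 ± 0.27. All mitochondrial transcripts together made up 3.07% ± 0.327 of gene counts in passage 3 leaders and 0.686% ± 0.202 in the parental line (SD, n = 3 each). Leaving these transcripts out of library size and scaling changed the number of calls to 3987. Of 36 nuclear subunits of the respiratory chain, 15 were higher (41.7%) and 4 lower. NDUFB2, of complex I, had 145, 104.9 and 89.3 CPM in passage 3 leaders and 47.8, 36.4 and 36.3 CPM in the parental line (1.49 ± 0.24), and NDUFA1 rose by 1.94 ± 0.32. Members higher were 7 without passage 3 leader replicate 1, 13 without passage 3 leader replicate 2 and 9 without parental replicate 3. Members lower were 1 without passage 3 leader replicate 3.

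The hypoxia and glycolysis list as a whole was split evenly, 8 of 36 members higher and 8 lower, but its parts differed. Among members grouped under hypoxia only CA12 was called lower, and the other called members were higher. Among those grouped under glycolysis only SLC2A3 and LDHA were called higher, and the other called members were lower. Targets of hypoxia-inducible factor were among the members that rose and among those that fell. ADM, the vasodilator adrenomedullin, had 33.9, 41.1 and 42.2 CPM in passage 3 leaders and 1.54, 0.562 and 2.40 CPM in the parental line (4.72 ± 0.48, adjusted p = 6.07e-06). DDIT4, which restrains mTORC1, rose by 2.24 ± 0.24 and the glucose transporter SLC2A3 by 1.51 ± 0.18. The members that fell include enolase and a carbonic anhydrase. ENO1, the enolase, had 4063, 4159.5 and 3522 CPM in passage 3 leaders and 5488, 4889 and 6432 CPM in the parental line (-0.52 ± 0.13), and CA12, a carbonic anhydrase of the cell surface, fell by 3.73 ± 0.71. PKM, pyruvate kinase, HK1 and PFKP lost their call without passage 3 leader replicate 1 and without parental replicate 3, and in either case 2 members remained lower. Without passage 3 leader replicate 3, 5 did. LDHA, which makes lactate, rose by 1.04 ± 0.25.

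Genes of the unfolded protein and integrated stress responses moved in both directions. Of 33 tested, 7 were higher and 10 lower. Only some of the called members are named here. Members grouped on the list under the endoplasmic reticulum were called higher or not called. Those grouped under amino acid metabolism were called lower or not called. Of the regulators on the list, DDIT3 was called higher and TRIB3 and CEBPB lower. Genes of the endoplasmic reticulum were among those higher: HERPUD1, which acts in the degradation of misfolded proteins, had 149, 143 and 189.97 CPM in passage 3 leaders and 66.8, 65.1 and 54.2 CPM in the parental line (1.37 ± 0.20), and HSPA5, MANF and PDIA3, which help proteins fold, rose by 0.71 ± 0.15, 1.04 ± 0.19 and 0.91 ± 0.20. Targets of ATF4 were among those lower: ASNS, asparagine synthetase, had 26.3, 18.2 and 28.5 CPM in passage 3 leaders and 122, 129 and 79.5 CPM in the parental line (-2.18 ± 0.26), TRIB3, a pseudokinase, fell by 2.05 ± 0.26, SHMT2, of serine metabolism, by 0.94 ± 0.18, and SLC7A11 is described above. Members higher were 4 without passage 3 leader replicate 1, and members lower were 6 without passage 3 leader replicate 3 and 5 without parental replicate 3.

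Of 31 tested genes of cholesterol and fatty acid synthesis, 7 were higher and 5 lower. ELOVL6, which lengthens saturated fatty acids, had 25.4, 17.1 and 20.7 CPM in passage 3 leaders and 7.04, 8.78 and 6.29 CPM in the parental line (1.51 ± 0.23), and ELOVL2, which lengthens polyunsaturated ones, had 6.47, 3.68 and 2.48 CPM in passage 3 leaders and 70.2, 93.0 and 52.3 CPM in the parental line (-4.10 ± 0.65). SREBF1, the regulator of lipid synthesis genes, fell by 1.24 ± 0.26. Members higher were 3 without passage 3 leader replicate 3 or parental replicate 1, and members lower were 2 without passage 3 leader replicate 1 or parental replicate 3.

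Genes of DNA replication and mitosis were lower or not called. Of 35 replication genes, 14 were lower (40%) and 0 higher, with a median log2 fold change of -0.39. POLD1, the catalytic subunit of polymerase delta, had 78.9, 124 and 98.2 CPM in passage 3 leaders and 241, 202 and 369 CPM in the parental line (-1.43 ± 0.26 SE, adjusted p = 0.0011), and the helicase subunits MCM2, MCM4 and MCM7 fell by 1.18 ± 0.27, 0.90 ± 0.18 and 0.96 ± 0.22. Of 32 mitosis genes, 11 were lower (34.4%) and 0 higher, with a median of -0.60. AURKA, a spindle kinase, had 82.3, 73.9 and 82.4 CPM in passage 3 leaders and 275, 299 and 232 CPM in the parental line (-1.76 ± 0.23), CDC20, which activates the anaphase-promoting complex, fell by 1.32 ± 0.20, and AURKB by 1.21 ± 0.22. MKI67, the proliferation marker, had 119, 178 and 134 CPM in passage 3 leaders and 194, 245 and 308 CPM in the parental line, and lost its call without passage 3 leader replicate 1 or parental replicate 3. Replication genes lower were 12 without passage 3 leader replicate 2, 7 without passage 3 leader replicate 1 or 3 and 8 without parental replicate 3. Mitosis genes lower were 6 without passage 3 leader replicate 1 or parental replicate 1 or 2. They were 8 without passage 3 leader replicate 2 and 7 without passage 3 leader replicate 3.

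The signalling lists also held calls in both directions. Of 25 tested Notch and Wnt genes, 6 were higher and 4 lower: LEF1, a Wnt transcription factor, had 1.604, 4.91 and 4.03 CPM in passage 3 leaders and 0 counts in the parental line, at least 128-fold higher, HES1, a Notch target, rose by 2.22 ± 0.34, and NOTCH1 itself fell by 2.30 ± 0.55 and the receptor FZD7 by 1.66 ± 0.27. Of 20 tested feedback genes of the ERK pathway, 7 were higher and 4 lower. The phosphatase DUSP1 had 839.5, 908 and 970.2 CPM in passage 3 leaders and 89.1, 85.4 and 116 CPM in the parental line (3.23 ± 0.25, adjusted p = 3.63e-07), and DUSP6, which acts on ERK, had 16.9, 32.3 and 32.4 CPM in passage 3 leaders and 2.04, 2.17 and 0.0370 CPM in the parental line. Members higher were 4 without parental replicate 1 or 3, and members lower were 2 without passage 3 leader replicate 1 or 3 or parental replicate 3. Of 13 tested ERBB receptors and ligands, 2 were higher and 1 lower, and NRG4, a ligand of ERBB4, rose by 4.69 ± 1.03. EGF was called higher at 0.430 to 1.16 CPM in passage 3 leaders and 0 counts in the parental line, and it lost the call without any 1 library, so that 1 member remained higher, and the call of LRIG1, lower, was lost without passage 3 leader replicate 1 or 2 or parental replicate 3, which left 0.

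Passage 3 leaders were also set against leaders of the passages before and after, with the mean of passage 2 and passage 4 leaders as reference. In this comparison 3 of 16187 genes were called (0.0185%), and 847 had an unadjusted p under 0.05. INPP4B (ENSG00000109452.8), a phosphatase that removes a phosphate from phosphoinositides of the PI3K pathway, had 35.4, 34.3 and 19.4 CPM in passage 3 leaders, 1.19, 2.34 and 1.99 CPM in passage 2 leaders and 2.10, 2.16 and 2.74 CPM in passage 4 leaders (log2 fold change 3.83 ± 0.52 SE, adjusted p = 0.0120). HSPA6 (ENSG00000173110.6) had 42.0, 59.6 and 58.3 CPM in passage 3 leaders, 233, 294 and 347 CPM in passage 2 leaders and 192, 295 and 418 CPM in passage 4 leaders (-2.48 ± 0.34, adjusted p = 0.0120). In both genes the passage 3 libraries did not overlap with the other 6. Without passage 3 leader replicate 2 both values were nearly the same, 3.72 and -2.57, but the adjusted p was 0.0997 for each and 0 genes were called (473 at an unadjusted p under 0.05). The count was also 0 without passage 2 leader replicate 2 or 3 or passage 4 leader replicate 2, 1 without passage 2 leader replicate 1 or passage 4 leader replicate 1 or 3, and 6 without passage 3 leader replicate 3. HBB (ENSG00000244734.1) was the third gene, with 0.553, 21021 and 0.694 CPM in passage 3 leaders, and rests on replicate 2.

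Further levels across passages were chosen after their values were seen. ALCAM had means of 0.0863 CPM in the parental line and 5.77, 0.334, 7.60 and 0.923 CPM in leaders of passages 1, 2, 3 and 4, and its difference between passage 3 and the mean of passages 2 and 4 did not pass the test (3.78 on the log2 scale, adjusted p = 0.149). HSPA1B had means of 15.4 CPM in the parental line and 159, 135, 71.3 and 196 CPM in leaders of passages 1 to 4. VEGFA, the endothelial growth factor, had 62.0 CPM in the parental line and 53.4, 70.0, 167 and 387 CPM over the same passages. FN1 had 0.834 CPM in the parental line and 129, 1928, 1647 and 206 CPM. For HLA-DRA the series was 0.351 CPM in the parental line and 0.0554, 2.95, 9.51 and 202 CPM in the leaders. HSPA1B, VEGFA, FN1 and HLA-DRA were also not called against the mean of passages 2 and 4.

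**Figure D4:**
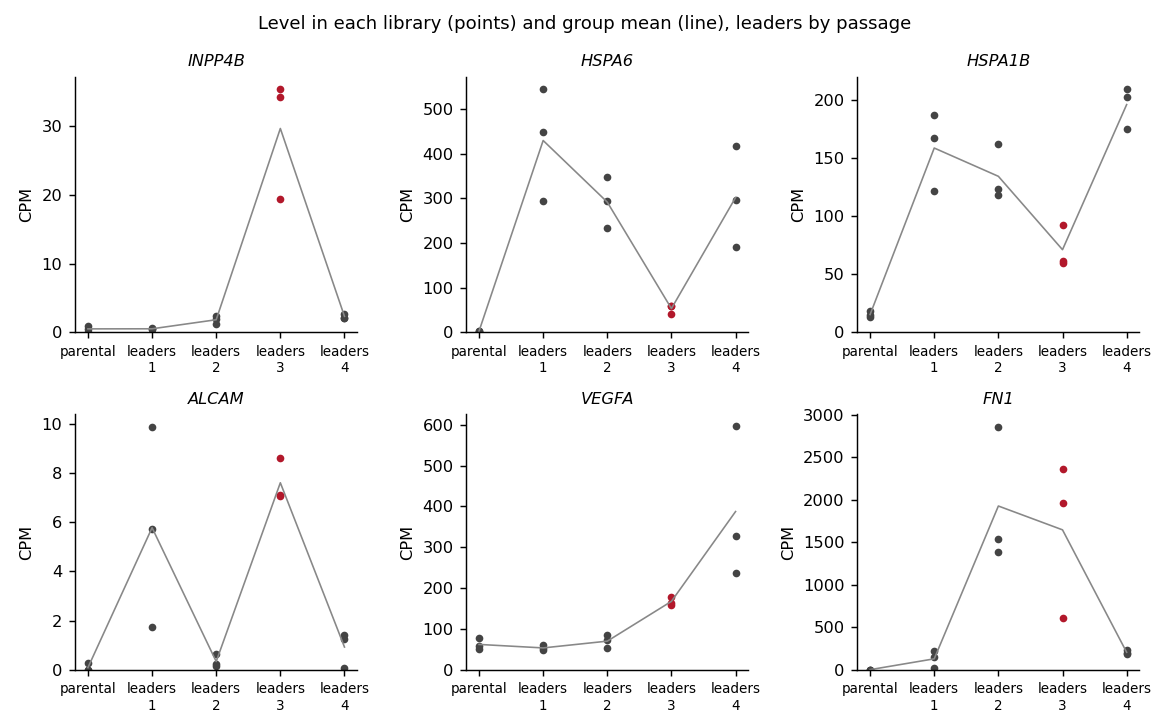
Points are libraries and lines join group means, in CPM on a linear scale, for the parental line and leaders of passages 1 to 4, with passage 3 in red. INPP4B stands at 19.4 to 35.4 CPM in passage 3 leaders and at 2.74 CPM or less in the other groups drawn, and HSPA6 is lower in passage 3 than in the other leaders. HSPA1B has its lowest leader mean in passage 3 and FN1 its highest means in passages 2 and 3. Neither HSPA1B nor FN1 was called against the mean of passages 2 and 4.

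The weight of replicate 2 was counted gene by gene. Among the genes called higher, 41 had more than 3 times the level of the other passage 3 leader libraries in replicate 2, and 20 of these were not called without it. H19, an imprinted noncoding RNA, had 63.5, 268 and 68.1 CPM in passage 3 leaders and 5.95, 6.64 and 9.14 CPM in the parental line. PRSS8, a membrane protease of epithelia, had 11.2, 36.5 and 11.2 CPM in passage 3 leaders and 1.17, 0.868 and 0.222 CPM in the parental line. CLDN2, a claudin that lets cations pass, had 1.49, 20.7 and 3.83 CPM in passage 3 leaders, and KRT6A, a keratin of wounded epithelium, 1.27, 12.3 and 3.77 CPM, both against 0 counts in the parental line, and KRT6A lost its call without replicate 2. These genes were chosen after their values were seen. Among the genes called lower, replicate 2 was more than 3 times below both other passage 3 leader libraries in 35. Such counts are not given for replicates 1 and 3. Replicates 1, 2 and 3 were the highest of the 3 in 818, 761 and 651 of the genes called higher. Among the genes called lower they were the highest in 299, 1037 and 410.

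**Figure D5:**
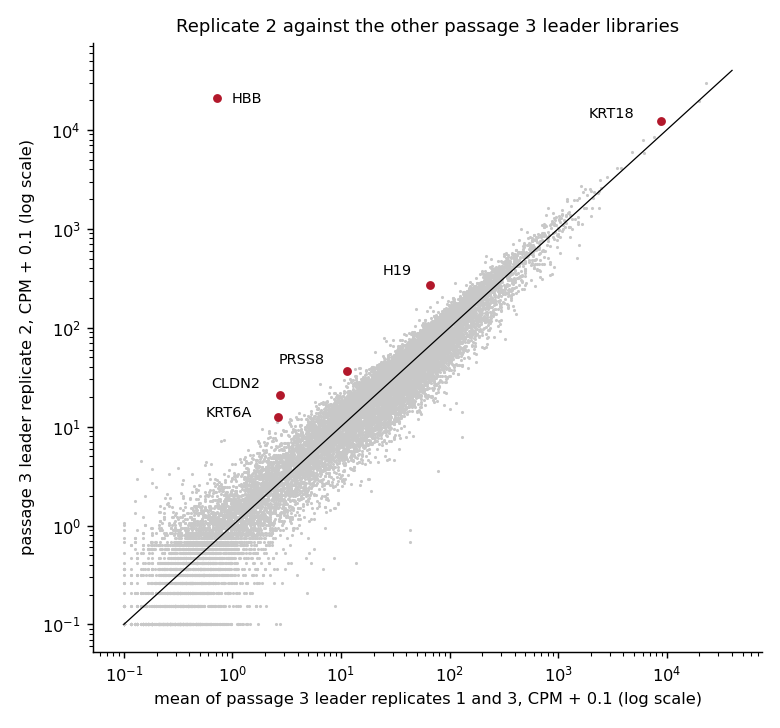
Each grey point is a tested gene, with the mean of passage 3 leader replicates 1 and 3 on the x axis and replicate 2 on the y axis, both in CPM plus 0.1 on log scales, and the line marks equality. HBB stands alone at 21021 CPM in replicate 2 and under 1 CPM in the others, and H19, PRSS8, CLDN2 and KRT6A lie above the line, while KRT18 lies near it.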

How the data were processed

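The authors deposited 1 table of raw counts per gene for 57445 genes in 18 libraries, made from 2 ng of total RNA amplified without strand marking and read from both ends, per the labels' protocols. The submitters' processing notes name cutadapt 1.6, STAR 2.5.0a, HTSeq 0.5.3 and DESeq 1.22.1, while build and annotation were not given in the sources used here. Its 5 closing rows that name no gene were 27.6% to 60.6% of reads in these 6 libraries and were kept out of library sizes and tests. All 18 libraries entered 1 edgeR 4.0.16 quasi-likelihood fit (R 4.3.3) with TMM scaling and filterByExpr at a minimum count of 10, which left out 41258 genes. P-values were Benjamini-Hochberg adjusted over 16187 genes and called under 0.05. CPM values use TMM-scaled library sizes. DESeq2 1.42.0 and limma 3.58.1 were alternatives. The biological coefficient of variation was 35.5%. The script was tested on simulated data. Some results are not reported here.

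Named genes were called genes averaging 5 CPM or more in whichever group was higher, without overlap of libraries, and with the same call without passage 3 leader replicate 2 (the 15 largest fold changes and 10 largest differences each way), plus up to 4 members per list by adjusted p, with further members by value. The members and the lists were chosen with earlier results of these data known. Ratios and bounds of genes with few counts are from summed counts over the effective library sizes, with exact 95% intervals that cover counting error only, since amplified reads are not independent molecules. Replicate numbers are shared between the groups, but same-numbered libraries did not deviate together, so no block was used. Replicates differed by far more than sampling noise.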

Additional observations from a re-analysis of the deposited data

Results flagged for a closer look

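The 3 genes INPP4B, HSPA6 and HBB differed between passage 3 leaders and the mean of passage 2 and passage 4 leaders in a test of that difference, as a log2 fold change from edgeR. INPP4B was higher in passage 3 leaders by 3.83 (29.7 ± 8.94 CPM in passage 3 leaders, 1.84 ± 0.590 CPM in passage 2 leaders and 2.34 ± 0.354 CPM in passage 4 leaders, SD, n = 3 each), in 3 of 3 libraries. HSPA6 differed by -2.48 (53.3 ± 9.80 CPM in passage 3 leaders, 291 ± 56.8 CPM in passage 2 leaders and 302 ± 113 CPM in passage 4 leaders), and was lower in 3 of 3 libraries. It has a near-identical relative, so its reads are uncertain. HBB differed by 13.4, in 1 of 3 libraries, replicate 2 (21021 CPM), which also has 24.8% of its reads not aligned.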

How the results depend on the processing

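The count of 3976 genes was 2926 to 4794 under the other filter, scaling, test and fit settings and 2491 to 3761 when 1 library was left out, lowest without passage 3 leader replicate 1. Members of the pathway lists that were called, 336 in all, stayed within 1.5 times that number. Against the mean of passage 2 and passage 4 leaders, 3 genes were called, 68 with no filter, 49 with DESeq2, 11 with limma-voom, 38 with the compared groups alone and 0 to 6 when 1 library was left out. Chosen after seeing the data, the comparison gave 2 genes against passage 2 leaders alone and 225 against passage 4 leaders alone. The cause of these differences was not tested. Of 4993 results of single genes under alternatives, 4417 kept direction and call, 575 lost the call, and 1 changed sign: HBB, 13.44 with all libraries, was -0.01684 without passage 3 leader replicate 2, up to 14.1 without any 1 other library, and not called by DESeq2 (13.35) or limma-voom (5.05). With the replicate number as a block, 3742 genes were called against the parental line and 3 against passages 2 and 4, and 323 list members. Deviations of same-numbered libraries correlated at 0.151, -0.408 and -0.262, and those of differently numbered libraries at -0.207 to 0.390. For genes with 0 counts in 1 group, depth allows a bound and not a size.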

Other observations

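PSG9, PSG5 and PSG4 belong to the pregnancy-specific glycoproteins, near-identical genes normally expressed in the placenta, and were lower in passage 3 leaders. PSG9 had 0, 0 and 0.132 CPM in passage 3 leaders and 32.7, 33.2 and 20.4 CPM in the parental line, and PSG5 had 0.0553, 0 and 0 CPM in passage 3 leaders and 7.99, 8.603 and 6.21 CPM in the parental line. PSG4 had 0.166, 0 and 0 CPM in passage 3 leaders and 9.28, 6.71 and 2.996 CPM in the parental line. Reads may be split between these genes. DNER, a neuronal ligand of Notch, had 6.75, 0.480 and 4.33 CPM in passage 3 leaders and 251, 283 and 275 CPM in the parental line. ITGBL1, a secreted protein with integrin-like repeats, had 0, 0 and 0.231 CPM in passage 3 leaders and 66.2, 66.2 and 60.3 CPM in the parental line.

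TGM2, transglutaminase, which crosslinks proteins, had 423, 239 and 335 CPM in passage 3 leaders and 1729, 1610.2 and 2840.3 CPM in the parental line (-2.63 on the log2 scale). FTL, the light chain of ferritin, had 3724, 4086 and 3200 CPM in passage 3 leaders and 8219, 6467 and 8183 CPM in the parental line. GJA1, connexin 43 of gap junctions, had 55.8, 92.1 and 243 CPM in passage 3 leaders and 6 counts in the parental line. ITLN1, an intelectin that binds microbial sugars, had 37.2, 50.8 and 80.3 CPM in passage 3 leaders and 1 count in the parental line. PTPRC, the leukocyte antigen CD45, had 1.33, 1.33 and 4.86 CPM in passage 3 leaders and 0 counts in the parental line.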
